A study of Penicillium oxalicum with 18 samples.

Results

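The transcript levels of wild-type Penicillium oxalicum on bran plus microcrystalline cellulose were compared with those on glucose. The comparison takes the 3 wild-type libraries of each medium, as named by their titles, which makes 6 of the 18 libraries of the study. The wild type was strain 114-2. Mycelia were pre-grown for 24 h at 30 °C with 2% glucose and then moved for 24 h to a medium labelled modified Mendal's, which held either 1% bran plus 1% microcrystalline cellulose or 2% glucose. Both sides therefore came from mycelia that had already grown on glucose, and the glucose side stayed on that sugar. Values of 3 wild-type libraries in 2% N-acetylglucosamine (GlcNAc, the monomer of chitin) and of a vib1 deletion strain in the same media, 3 libraries for each medium, stand beside the comparison. Nothing in the labels tells whether replicates were independent cultures. The p-values refer to the spread between these libraries alone, and that spread may be technical.

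Cellulose and the other polymers of the plant cell wall are too large to be taken up, and filamentous fungi secrete cellulases, hemicellulases and further enzymes that break them into sugars. Genes of these enzymes are generally switched on by breakdown products of the polymers and kept low by glucose, through what is called carbon catabolite repression. Penicillium oxalicum is known as a secretor of such enzymes, and Vib1 is a transcription factor that in Neurospora acts in enzyme secretion and in heterokaryon incompatibility. No enzyme or regulator can be pointed to in these values. The table gave gene models only as IDs, 9146 starting with PDE and 30 with XLOC, and 0 of the 9176 matched the reference annotation used here, so each gene model below is given by its ID with no role. The medium labels have no check from marker genes for the same reason.

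Levels are in FPKM (fragments per kilobase, scaled to a library's mapped fragments), as the authors deposited them from short 3' tags. The values of the 6 libraries summed to between 998259 and 1029069 FPKM, and absolute read depth is unknown. Spearman correlations across gene models were 0.968 to 0.986 between replicates on bran plus cellulose, 0.985 to 0.989 between replicates on glucose, and 0.926 to 0.938 between the media. Replicate 3 of bran plus cellulose stood farthest from its group, with a residual SD of 0.386 log2 units against 0.230 to 0.313 in the other 5. Of all 165168 values of the study 13701 were 0, and 415 of these stood beside a replicate above 10 FPKM. An exact 0 can thus be a failed estimate, and such a gene model is said to be listed at 0, with no fold.

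On the scale as deposited, more gene models were higher on bran plus cellulose than were lower. Differences were tested for 8455 gene models with limma on log2(FPKM + 1), a scale that understates the differences of low gene models, and called at a Benjamini-Hochberg adjusted p under 0.05. The test called 4083 of them, which is 48.3% of those tested. Of these, 2737 were higher on bran plus cellulose (32.4%) and 1346 were lower (15.9%). The 3 libraries of one medium lay wholly above those of the other in 2991 gene models (35.4%) on the side of bran plus cellulose and in 1516 (17.9%) on the side of glucose. The median over all gene models tested was itself 0.14 log2 units higher on bran plus cellulose. Relative to that median, by median-ratio rescaling, 1927 were called higher and 1917 lower, so the excess of higher calls depends on the scaling.

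Most called differences were small. Called gene models had a median difference of 0.57 log2 units where higher and −0.70 where lower, and 3118 of the 4083 differed by less than 1 log2 unit. At least 1 log2 unit separated the media in 535 higher gene models (6.33% of those tested) and 430 lower ones (5.09%). Median-ratio rescaling gave 419 and 530. A pseudocount of 5 FPKM in place of 1 left 310 higher and 320 lower. The media did not overlap in 521 of the 535 and 422 of the 430, beside 35.4% and 17.9% of all gene models tested. These sets were chosen for a called difference between the same libraries, which favours a lack of overlap. At 2 log2 units or more there were 129 higher and 135 lower gene models, at 3 or more 61 and 50, and at 5 or more 14 and 11.

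**Figure D1:**
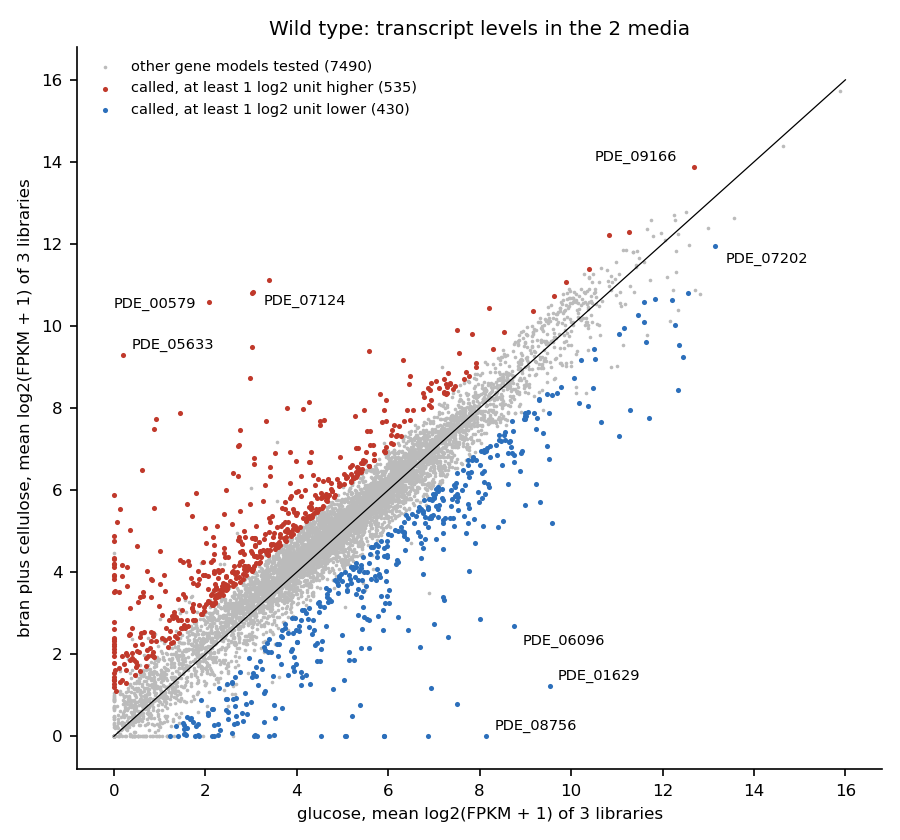
Mean log2(FPKM + 1) of the 3 wild-type libraries on glucose (x axis) and on bran plus cellulose (y axis) for the 8455 gene models tested. Red points are the 535 called at least 1 log2 unit higher on bran plus cellulose, blue points the 430 called at least 1 log2 unit lower, grey points the rest, and the line marks equal levels. PDE_05633, PDE_00579 and PDE_07124 lie far above the line, and PDE_01629, PDE_06096 and PDE_08756 far below it.

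The direction of the large differences went with the mean level over all 18 libraries, a measure that is not independent of direction. Among the 1080 with a mean under 5 FPKM over all 18 libraries, 98 were at least 1 log2 unit higher (9.07%) and 55 lower (5.09%). Among the 2026 between 5 and 20 FPKM the counts were 195 (9.62%) and 84 (4.15%). Gene models of middle level were nearly balanced, with 162 higher and 149 lower among the 3668 between 20 and 100 FPKM. Above that the lower side prevailed, with 74 higher (4.85%) and 127 lower (8.33%) among the 1525 between 100 and 1000 FPKM, and 6 higher and 15 lower among the 156 at 1000 FPKM or more. Most of the 18 libraries were on a sugar. A gene model high on sugars thus has a higher mean than one as high only on bran plus cellulose, which favours this split. The counts are a description of these libraries, and the split between the directions moves with the scaling as given above.

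The most abundant transcripts took a smaller share of each library on bran plus cellulose. The top 100 most abundant gene models took 34.1%, 34.7% and 35.2% of the FPKM there and 38.6%, 37.9% and 37.4% on glucose. At least 10 FPKM were reached by 6497, 6516 and 6379 gene models on bran plus cellulose and by 6182, 6193 and 6250 on glucose. The groups did not overlap in either measure, and exact two-sided permutation tests gave p = 0.1 for each, the smallest that 3 against 3 libraries allow. The second measure, a count at a fixed bound, depends on the scaling. The median FPKM of the libraries averaged 25.09 on bran plus cellulose and 22.58 on glucose. Of the 100 most abundant gene models of each medium 67 were the same, and of the 10 most abundant 5. The most abundant transcripts of both media, PDE_09832 and PDE_09831, were chosen after their values were seen. PDE_09832 stood at 48606, 55125 and 58157 FPKM on bran plus cellulose and at 65740, 56472 and 58991 FPKM on glucose, groups that overlapped, and its difference was not called (−0.16 ± 0.351 log2 units, SE; limma adjusted p = 0.731). PDE_09831 averaged 21423 ± 1639 FPKM (SD, n = 3) and 25432 ± 2434 FPKM and was not called either (−0.25 ± 0.304, adjusted p = 0.535).

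A small set of gene models was low on glucose, under 10 FPKM in each wild-type library, and abundant on bran plus cellulose. PDE_00579 was at 1689, 1644 and 1332 FPKM on bran plus cellulose and at 2.05, 3.24 and 4.94 FPKM on glucose. All 3 libraries of the first medium lay above all 3 of the second, as the rule for named gene models required of each one named by it. The ratio of the means was 456, and the log2 difference was 8.51 ± 0.225 (SE; limma adjusted p = 4.86e-13). PDE_07124 was at 1806, 1498 and 2227 FPKM against 7.85, 7.65 and 6.33 FPKM, a ratio of the means of 253 and a log2 difference of 7.79 ± 0.13 (adjusted p = 5.61e-15). PDE_05633 was at 610.6, 567.9 and 704.8 FPKM on bran plus cellulose, while on glucose it was listed at 0 in replicate 1 and stood at 0.16 and 0.33 FPKM in the others. Its log2 difference of 9.08 ± 0.171 (adjusted p = 1.01e-14) depends on the pseudocount, since its glucose values are near 0, and was 6.93 with a pseudocount of 5 FPKM.

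With the pseudocount of 1 FPKM, 5 gene models were called at least 7 log2 units higher. The other two, PDE_07945 and PDE_00607, were chosen after their values were seen. PDE_07945 averaged 1802 ± 361 FPKM (SD, n = 3) against 7.13 ± 0.656 FPKM on glucose, and PDE_00607 averaged 2246 ± 369 FPKM against 9.56 ± 0.165 FPKM. Summed, the 5 held 8302, 7623 and 8297 FPKM in the 3 libraries on bran plus cellulose, or 0.825%, 0.744% and 0.831% of the FPKM. On glucose their sum was 26.6, 28.3 and 27.7 FPKM, and in wild type on GlcNAc it was 37.6, 39.8 and 33.8 FPKM. Both sugars thus left the sum of these 5, picked for their difference against glucose, below 40 FPKM. In the deletion strain, whose levels do not enter the wild-type difference, the sum was 10811, 10183 and 10719 FPKM on bran plus cellulose and 201, 291 and 246 FPKM on glucose. All 5 were called higher there too, as were 28.4% of all gene models tested. For 4 of them the medium effect was called as larger in wild type. A strain difference on that side was called for 2880 of the 8455 tested. Choosing the 5 on their wild-type values enlarges those of wild type and so favours that side. The difference between the strains, in log2 units ± SE, was 3.73 ± 0.192 (limma adjusted p = 4.5e-10) for PDE_00607, 2.72 ± 0.318 for PDE_00579, 2.03 ± 0.241 for PDE_05633 and 1.28 ± 0.234 (adjusted p = 0.000325) for PDE_07945. The fifth, PDE_07124, differed between the media by 7.92 ± 0.13 log2 units in the deletion strain, and its difference between the strains was not called (−0.13 ± 0.184, adjusted p = 0.571).

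In the opposite direction, PDE_01629 fell from 721.8, 778.1 and 716.3 FPKM on glucose to 1.6, 1.0 and 1.46 FPKM on bran plus cellulose. Its mean was 546 times higher on glucose, and the log2 difference was −8.30 ± 0.168 (SE; limma adjusted p = 1.65e-14). GlcNAc left it at 3.32, 3.35 and 3.99 FPKM, far under its level on glucose. Its level on bran plus cellulose was lower still, by a called −0.96 ± 0.168 log2 units against GlcNAc (adjusted p = 0.000169). The deletion strain had 833 ± 220 FPKM (SD, n = 3) on glucose, 1.23 ± 0.345 FPKM on bran plus cellulose and 0.593 ± 0.214 FPKM on GlcNAc. The effect of bran plus cellulose against glucose was not called as different between the strains (0.22 ± 0.237 log2 units, adjusted p = 0.46). PDE_06096 was at 430.6, 411.7 and 457.0 FPKM on glucose and at 5.74, 4.14 and 6.86 FPKM on bran plus cellulose (−6.06 ± 0.238, adjusted p = 4.99e-11). On GlcNAc it lay in between, at 125, 131 and 165 FPKM. Its change of medium was smaller in the deletion strain, −0.61 ± 0.238 log2 units, and the strains differed by −5.46 ± 0.337 (adjusted p = 4.25e-09).

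Measured in FPKM rather than in fold, the largest differences lay in transcripts that were abundant in both media. PDE_09166 was at 13985, 14544 and 16745 FPKM on bran plus cellulose and at 6329, 7192 and 6352 FPKM on glucose, 2.28 times higher by the means (log2 difference 1.19 ± 0.118, SE; limma adjusted p = 1.29e-06). GlcNAc had the lowest level, 2481 ± 136 FPKM (SD, n = 3), so the order of the media was bran plus cellulose, glucose, GlcNAc, with each neighbour called as different. In the deletion strain the direction was turned, with 9779 ± 760 FPKM on bran plus cellulose and 19580 ± 3382 FPKM on glucose (−0.99 ± 0.118, adjusted p = 3e-06). PDE_07202 was at 3553, 4737 and 3682 FPKM on bran plus cellulose and at 10811, 9105 and 7733 FPKM on glucose (−1.21 ± 0.225, adjusted p = 0.000468). Its level on GlcNAc was lower than on either, 1751 ± 295 FPKM.

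PDE_09377 and PDE_00509 rest more on single libraries. PDE_09377 was at 7374, 8089 and 3805 FPKM on bran plus cellulose and at 3381, 3650 and 3338 FPKM on glucose (0.82 ± 0.2 log2 units, SE; limma adjusted p = 0.00348). PDE_00509 was at 8558, 8009 and 3714 FPKM on bran plus cellulose and at 12550, 11936 and 11733 FPKM on glucose (−0.93 ± 0.236, adjusted p = 0.00456). In both, replicate 3 of bran plus cellulose was the low library, near the glucose values in the first and far from them in the second. Without that library the log2 differences were 1.16 and −0.54, both still called. A fit to the 6 libraries alone ended both calls (limma adjusted p = 0.0639 and 0.0615).

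**Figure D2:**
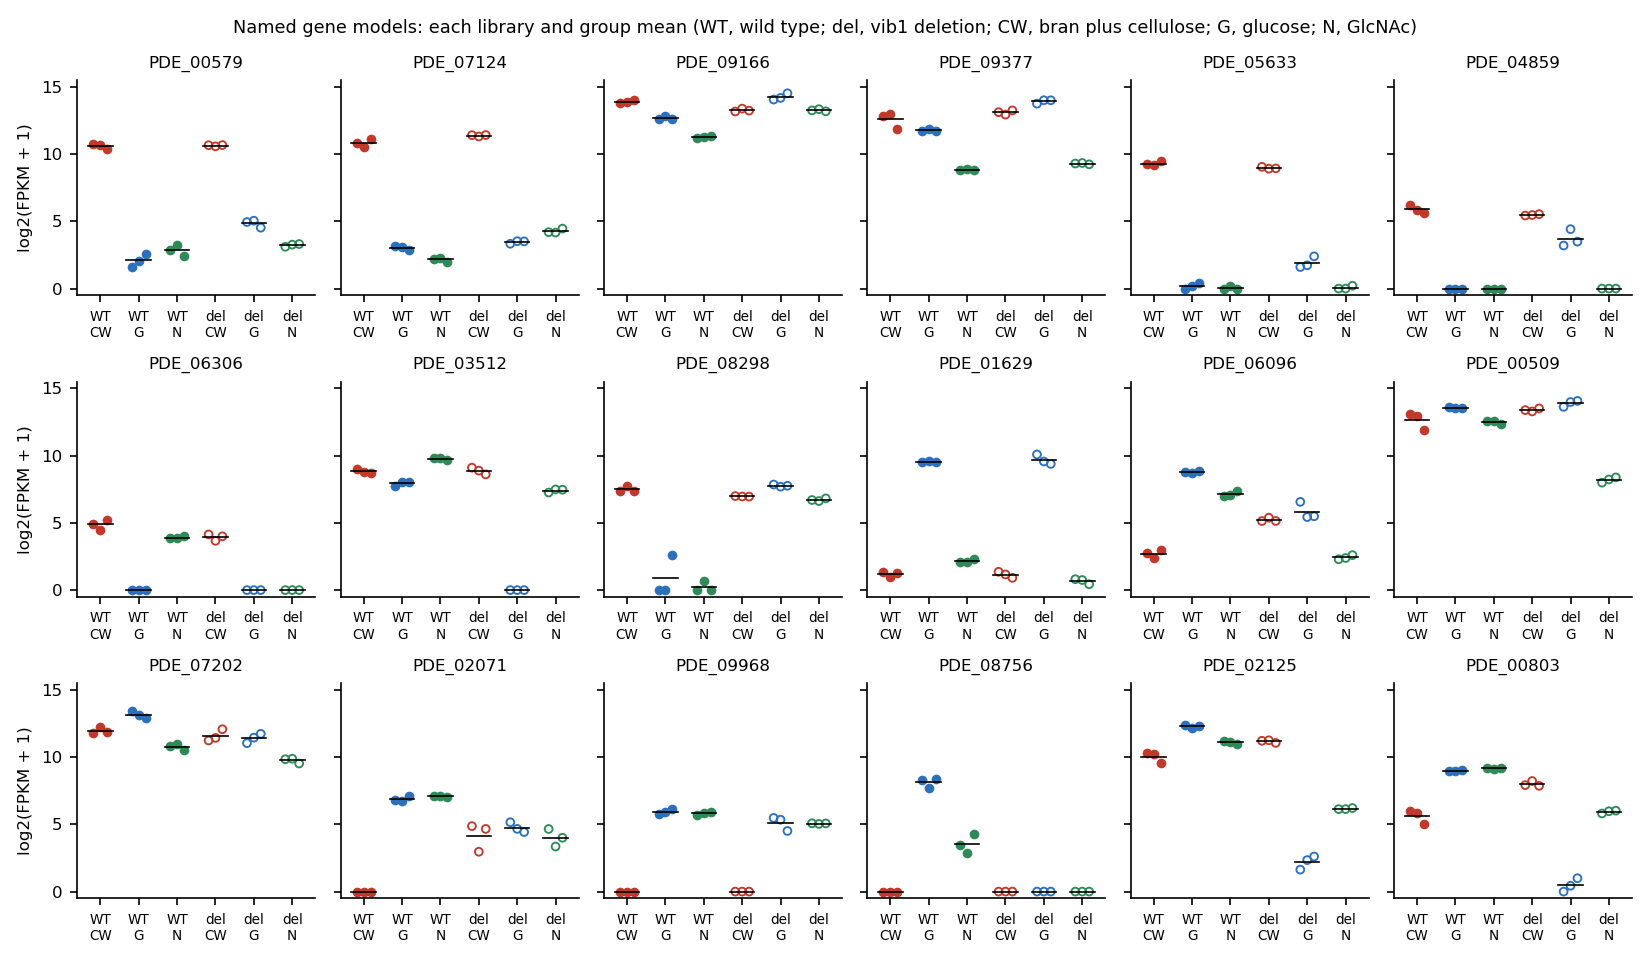
Log2(FPKM + 1) of 18 gene models named by rule (y axis) in each of the 18 libraries by strain and medium (x axis). Each point is 1 library, filled for wild type and open for the vib1 deletion, and the bar is the mean of 3. Between bran plus cellulose and glucose, PDE_07124 and PDE_01629 differ in the same direction in both strains, whereas PDE_02125 and PDE_00803 are low in the deletion strain on glucose, at 3.75 and 0.447 FPKM on average.

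The GlcNAc libraries give the levels of the same gene models on another sugar. Which medium set a difference was not tested. In wild type 60.8% of the gene models tested were called between bran plus cellulose and GlcNAc, and 59.0% between GlcNAc and glucose. These comparisons share libraries with the main one, so only values are set side by side. PDE_05633 and PDE_07124 had the largest smaller difference against both sugars on the higher side. Choosing on both differences favours gene models with like levels on the sugars. On GlcNAc PDE_05633 was listed at 0 in replicates 1 and 3 and stood at 0.16 FPKM in replicate 2, and its difference between the sugars was not called (−0.14 ± 0.171 log2 units, SE; limma adjusted p = 0.515). PDE_07124 was at 3.71, 3.85 and 3.02 FPKM on GlcNAc, under its glucose level by 0.87 ± 0.13 log2 units (adjusted p = 4.26e-05).

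On the lower side, PDE_02071 and PDE_09968 were listed at 0 in every wild-type library on bran plus cellulose and present on both sugars. PDE_02071 was at 110.5, 104.9 and 137.1 FPKM on glucose and at 135.5, 135.9 and 129.0 FPKM on GlcNAc (adjusted p between the sugars 0.707). PDE_09968 was at 52.8, 58.4 and 67.9 FPKM on glucose and at 51.9, 55.0 and 59.2 FPKM on GlcNAc (adjusted p = 0.651). The values of the sugars overlapped in both gene models. The rule chose them by their differences against both sugars, which favours such overlap. The strains split them: PDE_09968 was listed at 0 in the 3 deletion libraries on bran plus cellulose as well, whereas PDE_02071 was present there at 28.2, 6.78 and 24.2 FPKM.

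Some called gene models were listed at 0 in all 3 libraries of a medium and averaged at least 10 FPKM in the other. There were 12 listed at 0 on glucose and 7 listed at 0 on bran plus cellulose. PDE_04859 was at 72.8, 56.4 and 47.2 FPKM on bran plus cellulose and listed at 0 in all wild-type libraries of both sugars (adjusted p against glucose 3.94e-11). The deletion strain held some of it on glucose, 8.18, 20.4 and 10.2 FPKM. PDE_06306 was at 29.4, 21.5 and 36.8 FPKM on bran plus cellulose and listed at 0 on glucose in both strains (adjusted p in wild type 4.91e-12). On GlcNAc the wild type held 13.4, 13.6 and 14.9 FPKM of PDE_06306, while the deletion strain was listed at 0. PDE_08756 was at 309.1, 211.8 and 337.5 FPKM in wild type on glucose, listed at 0 on bran plus cellulose (adjusted p = 3.23e-12), and listed at 0 in the 9 deletion libraries. A group that is wholly at 0 contributes no spread, and p-values of such gene models may be too small.

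Taken over all 535 gene models at least 1 log2 unit higher, the share of the FPKM was 8.15%, 7.91% and 8.28% on bran plus cellulose and 2.62%, 2.72% and 2.61% on glucose. That contrast chose them and is a description. The levels of the other libraries did not enter that difference, though they helped set the filter and the spread of the fit. In wild type on GlcNAc the 535 held 2.24%, 2.31% and 2.37%. In the deletion strain they held 7.01%, 6.90% and 7.0% on bran plus cellulose and 5.87%, 6.60% and 7.26% on glucose, values that overlapped when all 535 were summed. The 430 lower gene models held 3.90%, 3.91% and 3.73% on bran plus cellulose and 12.9%, 13.1% and 12.8% on glucose. On GlcNAc they held 7.46%, 7.59% and 7.46%, and in the deletion strain 4.52%, 4.52% and 4.83% on bran plus cellulose against 11.2%, 10.2% and 10.6% on glucose, with no overlap. The overlap of the higher set rests on its most abundant member, PDE_09166, which alone held 1.79%, 1.99% and 2.55% of the FPKM in the deletion strain on glucose and 0.89%, 1.03% and 0.952% on bran plus cellulose. Without it, an exception made after the values were seen, the other 534 held 4.08%, 4.61% and 4.70% on glucose and 6.12%, 5.86% and 6.04% on bran plus cellulose in that strain, with no overlap. In wild type on glucose the 534 held 1.99%, 2.01% and 1.99%.

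**Figure D3:**
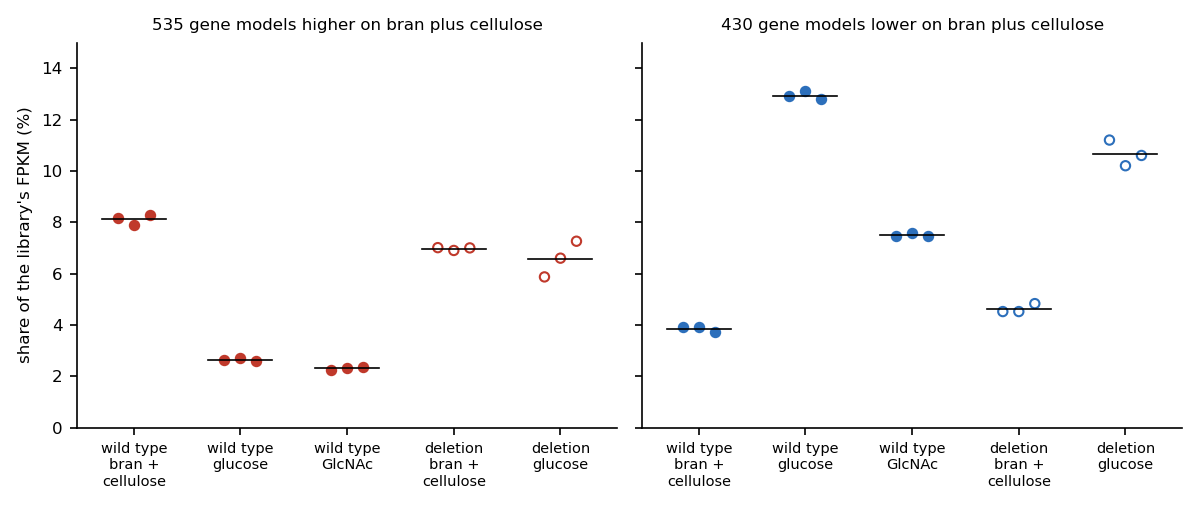
Share of each library's FPKM (y axis, %) taken by the 535 gene models called at least 1 log2 unit higher (left) and the 430 called at least 1 log2 unit lower (right) on bran plus cellulose in wild type, by strain and medium (x axis). Each point is 1 library and the bar is the mean of 3. The higher set holds 5.87% to 7.26% in the deletion strain on glucose against 2.61% to 2.72% in wild type on glucose, and 4.08% to 4.70% against 1.99% to 2.01% without PDE_09166.

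The vib1 deletion strain underwent the same change of medium in 6 other libraries, whose levels do not enter the wild-type difference but whose spread entered the shared fit and filter. A fit to the wild-type libraries of both media alone gave 516 higher and 421 lower gene models at 1 log2 unit, in place of 535 and 430. No ID could be tied to vib1, so the deletion has no check from the deleted gene here. In that strain 28.4% of the gene models tested were called higher on bran plus cellulose and 34.1% lower. Among the 535 higher gene models, the deletion strain had 288 called higher (53.8%), 101 called lower and 146 not called. Of the 430 lower ones, 254 were called lower (59.1%), 100 higher, and 76 were not called. The shares called in the same direction thus lay above the 28.4% and 34.1% of all gene models. Median log2 differences were 1.40 (wild type) and 0.66 (deletion strain) for the higher set, and −1.56 and −0.99 for the lower set, and choosing on the wild-type values enlarges those of wild type.

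The same counts at larger sizes were as follows. Of the 129 at 2 log2 units or more, 91 were called higher in the deletion strain (70.5%) and 6 lower. Of the 61 at 3 or more, 47 were called higher (77.0%), and of the 14 at 5 or more, 11 (78.6%) with 0 called lower. On the lower side the counts were 84 of 135 (62.2%), 31 of 50 (62.0%) and 7 of 11 (63.6%). With the bound of 1 log2 unit in both strains, 220 higher gene models were shared, 41.1% of the 535 in wild type and 21.2% of the 1037 in the deletion strain. The 206 shared lower ones were 47.9% of the 430 and 20.8% of the 989.

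**Figure D4:**
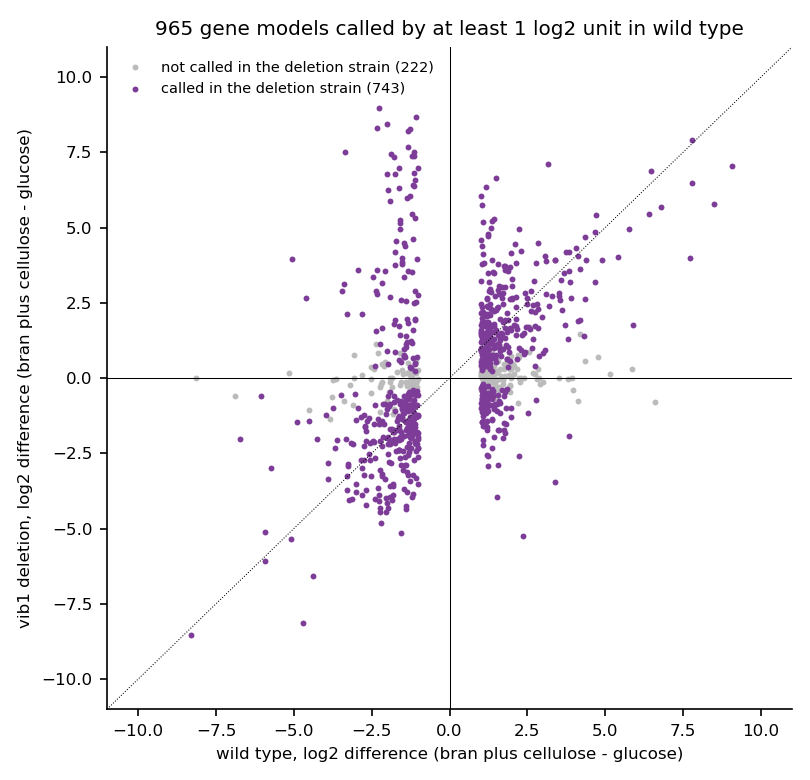
Log2 difference between bran plus cellulose and glucose in wild type (x axis) against that of the vib1 deletion (y axis) for the 965 gene models called by at least 1 log2 unit in wild type. Purple points are called in the deletion strain and grey points are not, and the dotted line marks equal differences. Among the 430 lower gene models 100 were called higher in the deletion strain, where 28.4% of all tested were. PDE_02125, picked for its difference between the strains, was higher there by 8.97 log2 units.

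The difference of the medium effect between the strains, tested directly, was called for 4423 gene models (52.3%), and for 1919 of them it was at least 1 log2 unit. Among gene models higher on bran plus cellulose in wild type, PDE_03512 and PDE_08298 stood apart most. PDE_03512 was at 514, 431 and 414 FPKM on bran plus cellulose and at 212.5, 258.3 and 263.9 FPKM on glucose in wild type (0.89 ± 0.12 log2 units, SE; limma adjusted p = 2.87e-05). On GlcNAc it was higher still, 872 ± 38.2 FPKM (SD, n = 3). The deletion strain was listed at 0 on glucose in all 3 libraries and had 547, 469 and 386 FPKM on bran plus cellulose. PDE_08298 was at 167, 208 and 162 FPKM on bran plus cellulose in wild type, was listed at 0 in glucose replicates 1 and 2, and stood at 5.08 FPKM in replicate 3. In the deletion strain it was present in every medium, at 124 ± 1.92 FPKM on bran plus cellulose and 216 ± 12.3 FPKM on glucose.

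Among those lower on bran plus cellulose, PDE_02125 was at 1277, 1169 and 752 FPKM there and at 5257, 4583 and 5095 FPKM on glucose in wild type (−2.26 ± 0.21 log2 units, SE; limma adjusted p = 6.92e-07). GlcNAc lay in between, at 2186 ± 188 FPKM (SD, n = 3). The deletion strain had 2.10, 4.06 and 5.09 FPKM on glucose and 2363, 2424 and 2116 FPKM on bran plus cellulose, so the medium effects of the strains were opposite and differed by −11.23 ± 0.297 log2 units (adjusted p = 1.13e-13). PDE_00803 was at 62.6, 57.4 and 31.8 FPKM on bran plus cellulose and at 505.2, 491.9 and 517.5 FPKM on glucose in wild type (−3.35 ± 0.233, adjusted p = 3.15e-08). Its deletion-strain mean was 256 ± 35.6 FPKM on bran plus cellulose and 0.447 ± 0.502 FPKM on glucose.

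PDE_00803 lies in a stretch of neighbouring IDs, PDE_00789 to PDE_00811, that moved together. The stretch and its ends were chosen after its values were seen, and its counts are a description. All 23 gene models were tested. In wild type 22 were called lower on bran plus cellulose (15.9% of all tested were). Of the 22, 19 were lower by at least 1 log2 unit (5.09% of all tested were). PDE_00807 was called higher (0.40 log2 units). The median difference was −1.51 log2 units and the range −3.35 to 0.40. The summed level of the stretch was 2195, 1979 and 1837 FPKM on bran plus cellulose and 6784, 5864 and 6503 FPKM on glucose. On GlcNAc the sum was 8001, 7678 and 7406 FPKM, above both.

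In the deletion strain all 23 were called higher on bran plus cellulose, as were 28.4% of all tested, by 3.58 to 8.43 log2 units, with a median of 6.79. The sum there was 5117, 5211 and 4255 FPKM on bran plus cellulose, 16.7, 16.1 and 20.9 FPKM on glucose, and 1536, 1501 and 1529 FPKM on GlcNAc. On glucose 20 of the 23 averaged under 2 FPKM. The difference between the strains was called for each of the 23, as it was for 52.3% of all tested. The tested gene models with the 4 numbers before the stretch differed in wild type by between −0.83 and 0.19 log2 units, and those numbered PDE_00813 to PDE_00816 by between −0.70 and 1.3. Whether neighbouring IDs are neighbours on a chromosome was not examined.

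**Figure D5:**
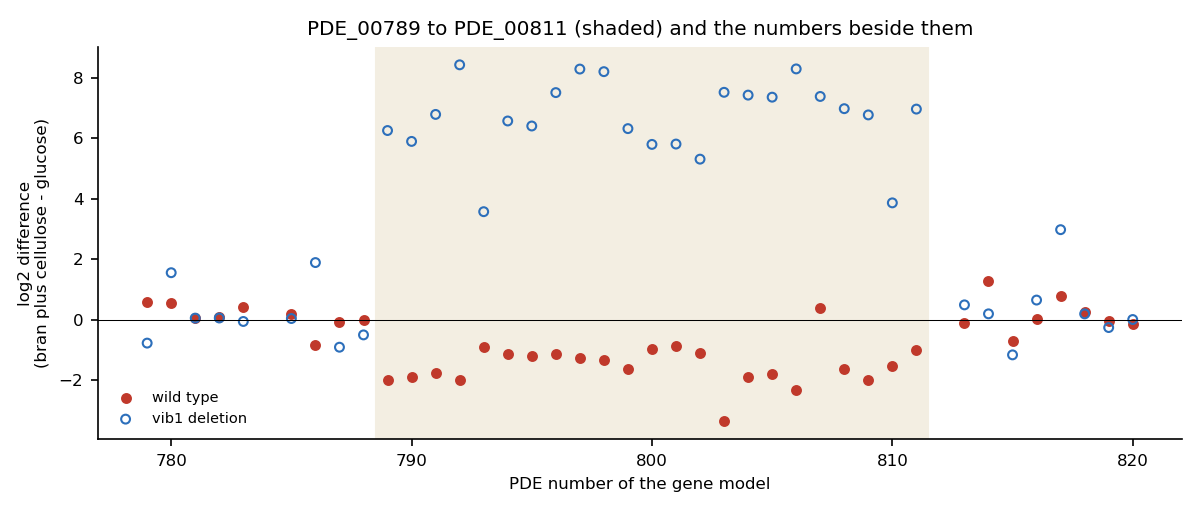
Log2 difference between bran plus cellulose and glucose (y axis) of single gene models, ordered by PDE number (x axis), for the wild type (filled) and the vib1 deletion (open). In the shaded stretch PDE_00789 to PDE_00811, 22 of 23 gene models were called lower in wild type (15.9% of all tested were). In the deletion strain 23 of 23 were called higher (28.4% of all tested were).

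Consecutive PDE numbers called by at least 1 log2 unit in a single direction were counted as runs. Runs of 3 or more numbered 12 on the lower side, with 53 gene models or 12.4% of the 428 with PDE numbers, and 10 on the higher side, with 34 gene models or 6.39% of 532. The stretch above supplied 4 of the 12. The lower side had 2 longest runs, of 6 gene models each. PDE_00794 to PDE_00799 lies in the stretch above and was called higher in the deletion strain. The naming rule took the run with the larger mean difference, PDE_09756 to PDE_09761, with differences of −2.05 to −3.92 log2 units. Its sum was 8098, 8376 and 9249 FPKM on glucose and 987, 945 and 556 FPKM on bran plus cellulose. PDE_09761 made up most of it, with 5211 ± 354 FPKM (SD, n = 3) on glucose and 360 ± 125 FPKM on bran plus cellulose, a mean 14.5 times higher on glucose (−3.92 ± 0.2, SE; limma adjusted p = 1.06e-09). On GlcNAc the sum was 3164, 3266 and 3007 FPKM, between the other media. All 6 were called lower in the deletion strain too (34.1% of all tested were), by −1.20 to −2.83 log2 units, and its sum went from 10950, 12863 and 11873 FPKM on glucose to 2227, 2010 and 2619 FPKM on bran plus cellulose.

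The longest higher run was PDE_08035 to PDE_08039, 5 gene models with differences of 1.01 to 2.41 log2 units. PDE_08035 was at 118, 112 and 77.9 FPKM on bran plus cellulose and at 18.9, 18.7 and 17.3 FPKM on glucose (2.41 ± 0.125, SE; limma adjusted p = 1.37e-09). The other 4 were low, with means of 2.06 to 13.4 FPKM on bran plus cellulose and 0.273 to 6.11 FPKM on glucose. With median-ratio rescaling PDE_08036 and PDE_08037 differed by 0.89 and 0.98 log2 units. With a pseudocount of 5 FPKM the 4 differed by 0.36 to 0.72. The run at 1 log2 unit thus depends on the scaling and the pseudocount. Among the deletion libraries 3 of the 5 were called higher and 0 lower, where 28.4% and 34.1% of all gene models tested were. Runs of 4 gene models with the largest mean differences, named after their values were seen, were PDE_06094 to PDE_06097 on the lower side, at −3.05 to −6.06 log2 units, and PDE_03927 to PDE_03930 on the higher side, at 1.20 to 5.87. The first includes PDE_06096, and its means on bran plus cellulose were 0.017 to 5.58 FPKM. Glucose means of the second were 0.02 to 1.31 FPKM. Sizes in both runs thus depend on the pseudocount. All 4 of the lower run were called lower in the deletion strain, and 2 of the 4 of the higher run were called higher there, beside the same 34.1% and 28.4%.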

How the data were processed

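Tag libraries were made from oligo(dT)-purified mRNA with the enzymes NlaIII and MmeI and sequenced, per the labels' protocols. Values are FPKM as the authors deposited them, per the file headers. Not given in the sources used here: aligner, genome build, gene lengths and how FPKM came from tags. Length scaling affects comparisons between gene models, not those of a gene model between libraries.

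Groups came from sample titles. With limma 3.58.1 (R 4.3.3), 6 group means were fitted to log2(FPKM + 1) of all 18 libraries (trend and robust, 12 residual degrees of freedom, two-sided, Benjamini-Hochberg). The test took the 8455 gene models that reached 1 FPKM in 3 or more libraries and left out 721. Scripts were tested on simulated data.

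Low values were examined for steps of whole reads. Of 2533 values in 243 gene models 72.0% lay within 0.1 of a whole step. The same values set the steps, so steps are not established and no counts were recovered. Intervals and detection limits were not computed.

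The rule named up to 2 gene models a side, among those called without overlap and with a mean of at least 10 FPKM on the higher side. They had the largest log2 difference with no library at 0, the largest FPKM difference, the largest smaller difference against both sugars, a side listed at 0, or the largest difference between strains. The longest run of IDs was added. Lists of gene functions could not be used. The comparison, the rule and the lists were chosen with earlier results of these data known. Alternatives were pseudocounts, filters, scalings, limma settings, a replicate block and leaving out each replicate.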

Additional observations from a re-analysis of the deposited data

Results flagged for a closer look

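The results below were singled out because the effect of the medium, bran plus cellulose against glucose, differed between the wild type and the vib1 deletion strain in a direct test of that difference (limma, adjusted p under 0.05). This held for 4423 of the 8455 gene models tested (52.3%). It also held for 15 of the 18 gene models named singly by the rule, of which 4 were picked for this difference. The others were picked for their differences between media in wild type. Those enter the tested difference, so the choice favours a call and the 15 are a description. Values are the medium effect in wild type minus that in the deletion strain, in log2 units of FPKM + 1.

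Where wild type showed the higher value, the differences were 2.72 for PDE_00579, 2.18 for PDE_09166, 1.64 for PDE_09377, 2.03 for PDE_05633, 4.11 for PDE_04859, 0.95 for PDE_06306 and 7.41 for PDE_08298. PDE_09166 and PDE_09377 were called in opposite directions in the strains. Where wild type showed the lower value, the differences were −5.46 for PDE_06096, −1.38 for PDE_07202, −6.29 for PDE_02071, −0.81 for PDE_09968, −8.14 for PDE_08756, −7.97 for PDE_03512, −11.23 for PDE_02125 and −10.87 for PDE_00803. The values of PDE_05633, PDE_04859, PDE_06306, PDE_08298, PDE_02071, PDE_09968, PDE_08756, PDE_03512 and PDE_00803 rest partly on libraries listed at 0, so their sizes depend on the pseudocount. What sets the strains apart was not tested.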

How the results depend on the processing

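No named gene model turned its direction under any alternative run, and of 641 such values 2 lost the call, those of PDE_09377 and PDE_00509 in a fit to the groups compared alone. These calls are by adjusted p, without a bound on size. The count of gene models at least 1 log2 unit higher moved beyond 1.5 times in a single alternative, a pseudocount of 5 FPKM (310 in place of 535). The count called, 4083, ranged from 3268 in the fit to the 6 libraries alone to 5232 with array weights. Leaving out each replicate gave 3499 to 4190 called, 524 to 562 at least 1 log2 unit higher and 413 to 452 lower. Of the 965 at 1 log2 unit, 855 to 897 were still called at that size, the fewest without replicate 3 of bran plus cellulose, and 0 changed sign. Quantile normalization gave 1977 higher and 1807 lower, near the median-ratio split, and rescaling to the same total 2851 and 1329. The difference between strains was called for 2880 gene models on the higher side and 1543 on the lower as deposited, and for 2107 and 2135 after median-ratio rescaling. Whether replicate numbers pair the libraries was not settled by small correlations of their deviations. Same-numbered libraries of the media correlated at 0.125, −0.0442 and 0.0862, and other pairs at −0.149 to 0.0481. Replicates 1 and 3 of bran plus cellulose correlated best with the same number of glucose. Replicate 2 of bran plus cellulose correlated best with replicate 3 of glucose. With the replicate number as a block 4074 gene models were called, 536 and 426 at 1 log2 unit. Absolute depth is unknown, which limits what can be said of low gene models and of those listed at 0.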

Other observations

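Outside the stretch PDE_00789 to PDE_00811, the runs PDE_03620 to PDE_03623 and PDE_01716 to PDE_01718 were lower on bran plus cellulose in wild type. Both runs were higher there in the deletion strain. They were chosen after their values were seen. PDE_03620 to PDE_03623 differed by −1.46 to −1.92 log2 units in wild type and by 2.70 to 4.96 in the deletion strain. PDE_01716 to PDE_01718 differed by −1.22 to −2.46 and by 3.37 to 7.66. Other lower runs went the same way in both strains. PDE_07204 to PDE_07208 differed by −1.32 to −2.39 in wild type and by −1.56 to −4.07 in the deletion strain, and PDE_08904 to PDE_08908 by −1.61 to −2.25 and by −2.42 to −3.89. On the higher side, PDE_09098 to PDE_09101 differed by 1.16 to 1.59 in wild type, with means of 163.7 to 381.6 FPKM on bran plus cellulose, and by −0.88 to 0.01 in the deletion strain, where 2 of the 4 were called lower, as were 34.1% of all tested.

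Of the 28 gene models with XLOC IDs that were tested, 11 were called higher and 2 lower on bran plus cellulose in wild type, beside 32.4% and 15.9% of all gene models tested. Those at 1 log2 unit or more are named here after their values were seen. XLOC_001138 was at 10.7, 16.7 and 36.4 FPKM on bran plus cellulose and at 2.90, 3.79 and 3.87 FPKM on glucose (SD 13.5 and 0.538 FPKM, n = 3). XLOC_002453 averaged 11.04 ± 1.04 FPKM (SD, n = 3) against 4.40 ± 0.633 FPKM, and XLOC_004600 averaged 16.2 ± 4.66 FPKM against 6.32 ± 0.32 FPKM. XLOC_006004 was at 31.9, 23.9 and 51.4 FPKM on bran plus cellulose, at 155, 233 and 140 FPKM on glucose and at 653, 649 and 683 FPKM on GlcNAc. XLOC_006390 was listed at 0 on bran plus cellulose and reached at most 1.85 FPKM on glucose.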
